A study of Mus musculus with 20 samples.

Results

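The dose trend was read from all 20 of the 20 libraries of the series, with the dose on each label (0, 0.03, 0.3, 3 or 6 mg/kg-day) coded as a rank from 0 to 4. It covers the 10101 genes, of 21450 gene symbols in the table, that had enough counts to be tested. Livers came from male Balb-C mice aged 10 to 12 weeks that had been gavaged once a day for 7 days with Nafion BP2 (PFESA-BP2), a polyfluorinated ether sulfonic acid left over from making the polymer Nafion. Each dose group held 4 individual animals, and the controls were gavaged without the compound. The protocols give deionized water as their vehicle, the titles of the control samples read DMSO, and the files do not settle which it was. RNA was measured by TempO-Seq, in which pairs of short DNA probes are joined when they sit side by side on a transcript and the joined pairs are counted. A gene is given below by its probe with the highest mean count, in CPM (counts scaled by library size), and a difference is a log2 difference with its standard error (SE) from a count model fitted over all libraries. "Rose" and "fell" are used where the adjusted p was under 0.05. Where groups are said to lie apart or not to overlap, the share of all genes that do so was not counted.

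The liver meets foreign and fatty acid-like chemicals with nuclear receptors, and each receptor has its own set of target genes. CAR and PXR drive the cytochrome P450 enzymes and transferases of drug metabolism, PPARα drives fatty acid oxidation, and NRF2 is a stress-responsive factor that drives glutathione and redox enzymes. Activators of CAR and PPARα also make rodent hepatocytes enter the cell cycle. SREBP2 drives cholesterol synthesis, and pulsed growth hormone, acting through STAT5, keeps male-biased liver genes high.

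Library totals ran from 6823518 to 10310931 counts, and the summed level of the 14 tested hepatocyte markers ran from 22266 to 41894 CPM, so every library read as liver. Along principal component 1 of log2 CPM (36.3% of the variance) the control, 0.03 and 0.3 mg/kg libraries lay together between -29.4 and -14.1, and the 6 mg/kg libraries lay between 28.7 and 57.9. Of the 3 mg/kg libraries, 3 lay at -10.5, -5.25 and 1.24, and replicate 4 lay at 92.6, beyond every 6 mg/kg library. Replicate 4 at 3 mg/kg had a mean correlation of 0.879 with its own group and replicate 4 at 6 mg/kg had 0.944, the lowest of the 20, and results that rest on them are also given without them. The plate was filled in dose order. Row A held the control, the 0.03 mg/kg and 3 of the 0.3 mg/kg libraries, and row B held 1 of 0.3 mg/kg and all of 3 and 6 mg/kg, so above 0.3 mg/kg the dose and the plate row can be told apart by comparison with control only through that 1 library. The comparison of 6 with 3 mg/kg lies within row B, and there dose and plate column cannot be told apart.

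Genes began to be called at 3 mg/kg, and the number then grew more than 10-fold at 6 mg/kg. No gene was called at 0.03 or at 0.3 mg/kg (0% of 10101 genes for each), although 457 and 1175 of 14122 probes had an unadjusted p under 0.05. At 3 mg/kg 114 genes rose (1.13%) and 41 fell (0.406%), and at 6 mg/kg 1096 rose (10.9%) and 973 fell (9.63%). Of the 155 genes called at 3 mg/kg, 149 were called in the same direction at 6 mg/kg (96.1% of the former and 7.20% of the latter). These comparisons share their controls. Step by step, no gene differed between 0.3 and 0.03 mg/kg (0%, with 331 probes at an unadjusted p under 0.05). From 0.3 to 3 mg/kg 204 genes rose (2.02%) and 93 fell (0.921%), and from 3 to 6 mg/kg 380 rose (3.76%) and 322 fell (3.19%). Tests were edgeR's quasi-likelihood test with Benjamini-Hochberg adjustment over all probes. With DESeq2 on the same probes, 2 probes were called at 0.03 and 28 at 0.3 mg/kg. Fitted on the 8 libraries of 3 and 6 mg/kg alone, the step between them called 11 probes against 950, and without replicate 4 of 3 mg/kg it called 3105. Scaling by total counts instead of TMM changed the balance of directions. Higher and lower probes were then 1822 and 892 for the slope (against 1607 and 1218), 1894 and 811 at 6 mg/kg (against 1634 and 1233), 192 and 437 from 0.3 to 3 mg/kg (against 263 and 138), and 670 and 199 from 3 to 6 mg/kg (against 559 and 391). It moved the median of all genes by 0.16 at 0.3 mg/kg and 0.15 at 6 mg/kg on the log2 scale.

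**Figure D1:**
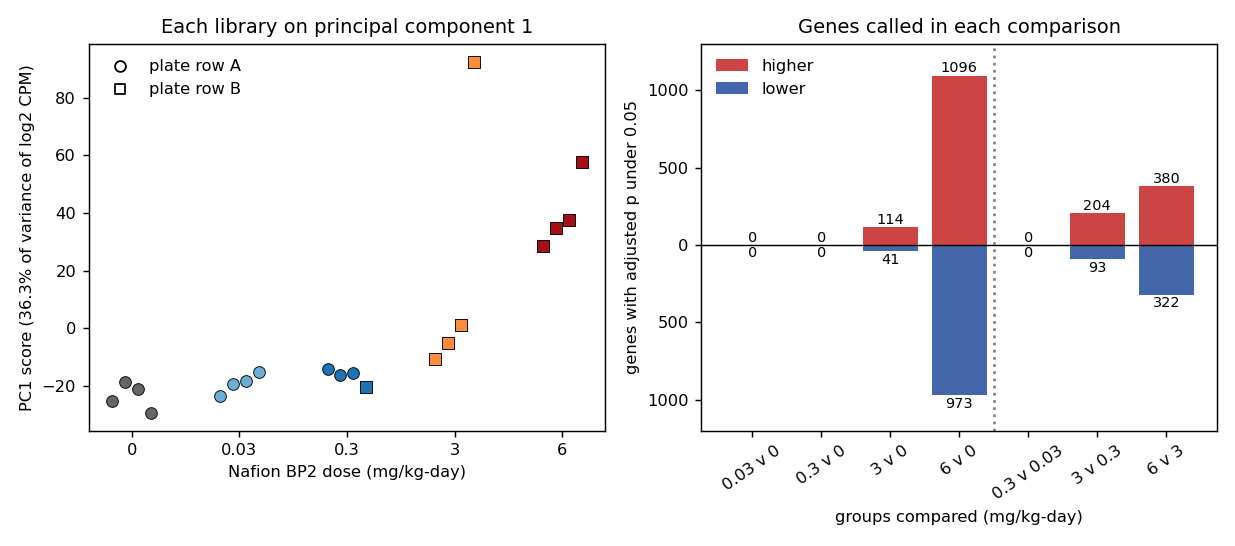
The left panel plots the score of each library on principal component 1 (36.3% of the variance of log2 CPM) against dose in mg/kg-day, with circles for plate row A and squares for row B. The right panel plots the number of genes called higher (above 0) and lower (below 0) in each comparison, from 0 at 0.03 and 0.3 mg/kg to 1096 higher and 973 lower at 6 mg/kg.

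Over all 5 groups, 1093 genes had a rising slope over the dose rank (10.8%) and 944 a falling one (9.35%), and 1477 genes differed between any groups (14.6%). Rising genes had median log2 changes from control of 0.10, 0.12, 0.52 and 1.09 at 0.03, 0.3, 3 and 6 mg/kg, and falling genes of -0.11, -0.15, -0.37 and -0.85. Of the rising genes 93.5% were farthest from control at 6 mg/kg, and of the falling genes 91.1%, a position that a slope over rank favours. Over all genes tested the share was 55.4%. A rise at each of the 4 steps was rarer, in 19.4% of rising genes, and a fall at each step was found in 21.2% of falling genes. Over all genes 7.09% moved 1 way at each step. At 3 mg/kg the median rising gene had gone 48.9% of its way to the 6 mg/kg value on the log2 scale and the median falling gene 44.2%, where a line through 0, 3 and 6 mg/kg would give 50%. The median over all genes was 39.1%. Without replicate 4 of 3 mg/kg these shares were 33.2% and 31.1%, and without replicate 4 of both doses 36.9% and 35.7%.

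A departure from a straight line over the rank was called for 129 genes (1.28%), of which 113 were farthest from control at 6 mg/kg. Their median absolute log2 changes were 0.23, 0.29, 0.70 and 1.95 from the lowest to the highest dose. Against dose in mg/kg itself the same test called 1 probe with all libraries, 25 without replicate 4 of 3 mg/kg and 388 without replicate 4 of both doses. Curvature over 0, 3 and 6 mg/kg was called for 1 gene, Cyp2c66 (0.0099%), and the median SE of that curvature over all genes was 0.45 on the log2 scale. A call after adjustment needs a bend several times its SE.

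The dose at which each process began to move was read from 38 gene lists. A list was said to begin at the lowest dose at which 2 of its members were called in the same direction. None began at 0.03 or 0.3 mg/kg, 11 began at 3 mg/kg and 27 at 6 mg/kg. Some of the 11 rested on replicate 4 of 3 mg/kg. Without it, the P450 reductase, bile acid, immediate-early, amino acid and acute-phase lists each had 1 member called at that dose, short of 2. The complement and the gap and tight junction lists each had 2 members falling there without it. With plate row as a term in the edgeR fit 1 gene was called at 3 mg/kg, Cyp2c66 of the drug metabolism list, so that no list began there. Requiring 10% of the members instead, 7 began at 3 mg/kg, 28 at 6 mg/kg and 3 at none. The lists differ in size and their members in depth, so the dose at which a list begins also depends on how many members could be called. Member counts below stand beside 1.13% of all genes rising and 0.406% falling at 3 mg/kg. At 6 mg/kg those shares are 10.9% and 9.63%.

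**Figure D2:**
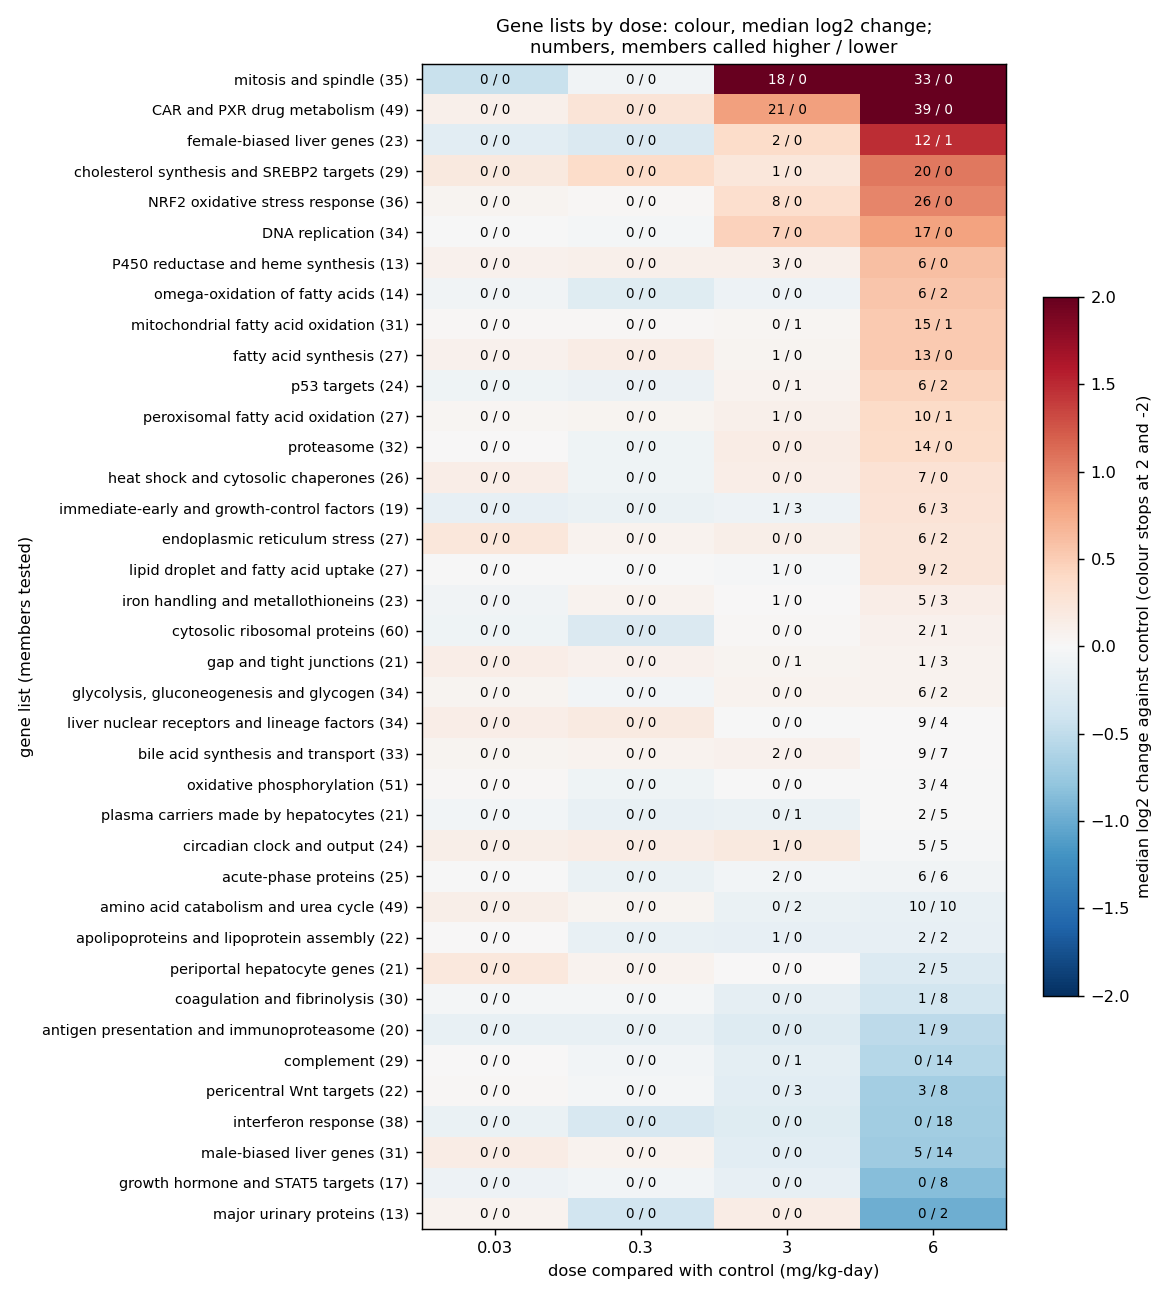
Each row is 1 gene list with its number of tested members, and each column a dose in mg/kg-day compared with control. Colour gives the median log2 change of the tested members (red higher, blue lower, with the scale stopping at 2 and -2) and the numbers give members called higher and lower. All counts are 0 at 0.03 and 0.3 mg/kg, and mitosis and CAR and PXR drug metabolism have the most called members at 3 mg/kg, 18 and 21.

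Drug metabolism genes under CAR and PXR formed the list with the most members called at 3 mg/kg. Of its 49 tested members 21 rose and none fell at 3 mg/kg, and 39 rose and none fell at 6 mg/kg. Its median log2 change was 0.11, 0.25, 0.82 and 2.01 from the lowest to the highest dose, beside medians between -0.02 and -0.01 over all genes tested. From 3 to 6 mg/kg, within row B, 26 of its members rose.

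Cyp2b10, the P450 enzyme most used as a readout of CAR in mice, lies at chromosome 7, 25897620 to 25926624, plus strand (GRCm38). It was at 90.6, 74.6, 28.9 and 54.9 CPM in the 4 controls and at 103, 77.9, 73.5 and 34.8 CPM at 0.03 mg/kg. At 0.3 mg/kg it was at 154, 128, 160 and 228 CPM, at 3 mg/kg at 410, 682, 768 and 464 CPM, and at 6 mg/kg at 1304, 1642, 1661 and 3990 CPM. The 2 lowest groups overlapped, and from 0.03 mg/kg up each group lay wholly above the one before. The log2 change was 1.43 ± 0.39 (SE) at 0.3 mg/kg, which missed the threshold (edgeR adjusted p = 0.42), 3.22 ± 0.42 at 3 mg/kg (edgeR adjusted p = 0.00031) and 5.11 ± 0.46 at 6 mg/kg (edgeR adjusted p = 3.9e-07). At 0.3 mg/kg the library in plate row B was the highest of the 4. With plate row as a term in the edgeR fit, estimated from that library, the row estimate was 0.63 ± 0.60, the change at 3 mg/kg was 2.59 ± 0.81 and not called (edgeR adjusted p = 0.92), and the change at 6 mg/kg was 4.48 ± 0.88 (edgeR adjusted p = 0.015).

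Cyp2c66, a mouse P450 of the 2c cluster on chromosome 19, was close to the limit of detection in the controls (0.75, 0.84, 0.11 and 0.26 CPM) and at 0.03 mg/kg (0.33, 0.60, 0.89 and 0.22 CPM). It was at 3.47, 1.45, 4.86 and 8.51 CPM at 0.3 mg/kg, 58.9, 96.0, 125 and 81.6 CPM at 3 mg/kg, and 147, 167, 172 and 107 CPM at 6 mg/kg. The 0.3 mg/kg libraries lay wholly above both lower groups and wholly below the 3 mg/kg ones, while those of 3 and 6 mg/kg overlapped. The step from 3 to 6 mg/kg was 0.71 ± 0.34 on the log2 scale and was not called (edgeR adjusted p = 0.22), and the curvature was -6.83 ± 0.69 (edgeR adjusted p = 9.4e-05). The slope up to 0.3 mg/kg had an unadjusted p of 1.4e-05 by edgeR and an adjusted p of 0.20. Fitted changes of this gene depend on its counts near 0 in the controls. Related P450 genes are near in sequence, and their probes may share reads.

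Cyp2c55, of the same cluster, rose by 3.66 ± 0.63 at 3 mg/kg (edgeR adjusted p = 0.0039), with libraries at 192, 416, 527 and 34.8 CPM against 43.6, 22.1, 11.6 and 15.1 CPM in the controls. The low value belongs to replicate 4 of 3 mg/kg, the library that stood apart, and overlaps the controls. Cyp3a11, a target of PXR, gave different readings with its 2 probes. Its main probe changed by -0.50 ± 0.54 at 6 mg/kg (edgeR adjusted p = 0.54), and its other probe rose by 1.87 there and by 1.59 at 3 mg/kg. The receptor genes themselves moved little. Nr1i2, which encodes PXR, rose by 0.75 ± 0.18 at 6 mg/kg (edgeR adjusted p = 0.0064), and Nr1i3, which encodes CAR, changed by -0.58 ± 0.21 (edgeR adjusted p = 0.061).

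Por, the reductase that passes electrons to all microsomal P450 enzymes, had its 0.03 mg/kg libraries above the control range but was not called at that dose. It was at 17.5, 15.9, 28.7 and 25.4 CPM in controls, 33.1, 32.5, 44.5 and 48.4 CPM at 0.03 mg/kg, 44.8, 52.4, 54.3 and 50.5 CPM at 0.3 mg/kg, 54.8, 71.8, 121 and 98.6 CPM at 3 mg/kg, and 148, 296, 301 and 78.6 CPM at 6 mg/kg. All groups from 0.03 mg/kg up lay wholly above the controls. The change of 1.20 ± 0.34 at 0.3 mg/kg was not called (edgeR adjusted p = 0.42), and those of 1.98 ± 0.34 at 3 mg/kg (edgeR adjusted p = 0.0037) and 3.23 ± 0.36 at 6 mg/kg (edgeR adjusted p = 4e-06) were. These control, 0.03 and 0.3 mg/kg libraries filled row A from left to right apart from 1 in row B, and whether plate column moves Por was not tested. Of the 13 tested genes for P450 reductase, cytochrome b5 and heme synthesis, 3 rose at 3 mg/kg and 6 at 6 mg/kg. Without replicate 4 of 3 mg/kg 1 rose at that dose.

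**Figure D3:**
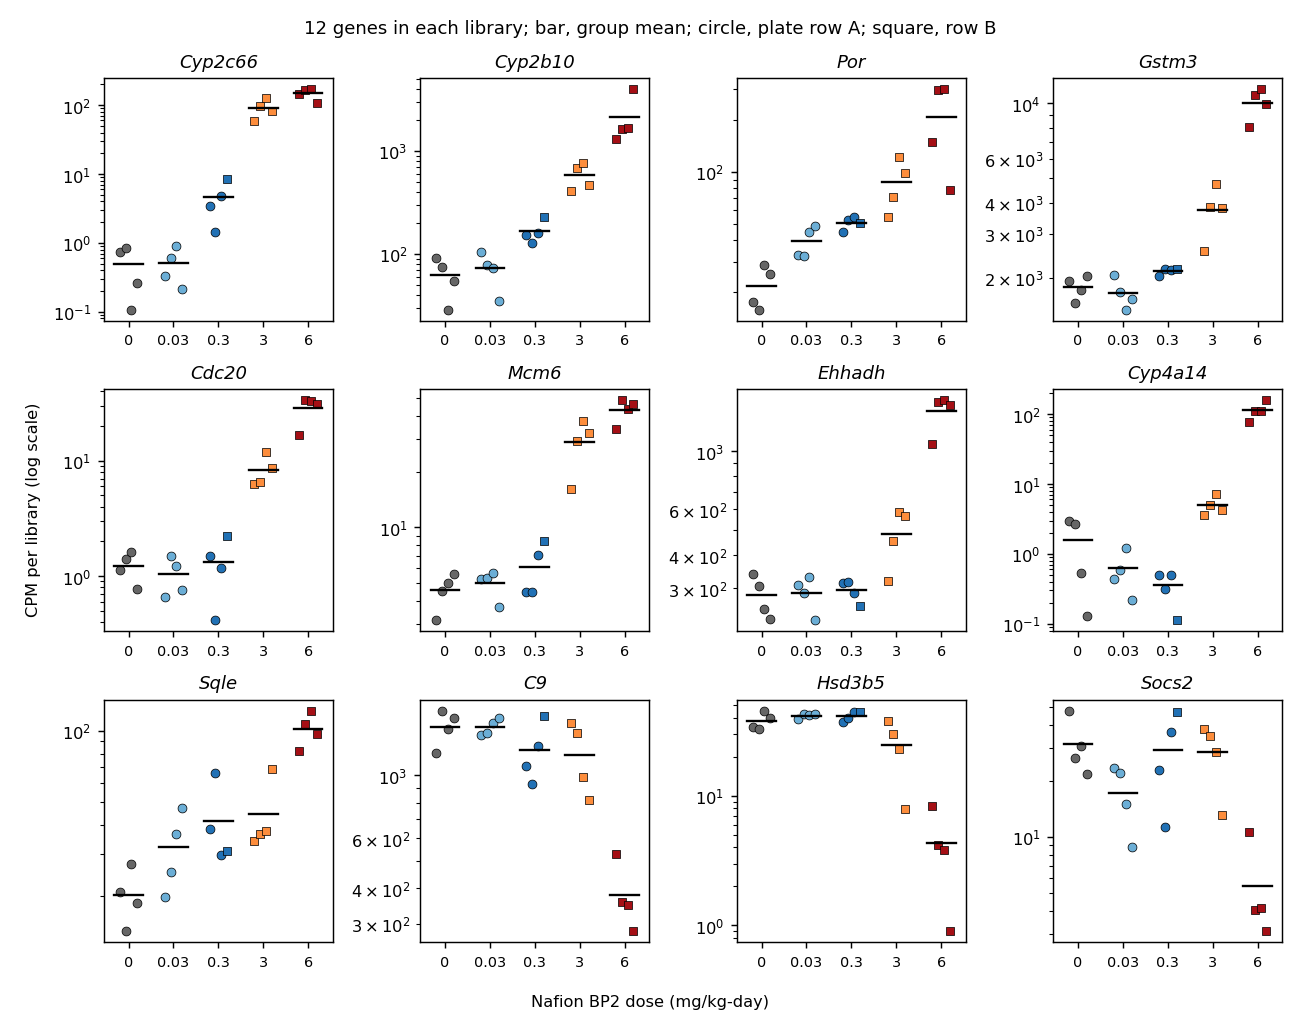
CPM on a log scale against dose in mg/kg-day for 12 genes in each of the 20 libraries, with group means as bars, circles for plate row A and squares for row B. Cyp2b10 and Cyp2c66 climb from 0.3 mg/kg, Cdc20 and Mcm6 from 3 mg/kg, and C9, Hsd3b5 and Socs2 fall at 6 mg/kg.

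Genes of the NRF2 response moved with the drug metabolism genes, with which the list shares several glutathione transferases. Of 36 tested members 8 rose and none fell at 3 mg/kg, and 26 rose and none fell at 6 mg/kg, with medians of 0.34 and 0.97. Gstm3, a glutathione transferase, was at 1943, 1581, 1780 and 2036 CPM in controls, 2564, 3835, 4727 and 3789 CPM at 3 mg/kg and 8023, 10811, 11423 and 9903 CPM at 6 mg/kg. These 3 groups did not overlap. It rose by 1.02 ± 0.16 at 3 mg/kg (edgeR adjusted p = 0.0014) and by another 1.43 ± 0.17 from 3 to 6 mg/kg (edgeR adjusted p = 7.4e-05). Nqo1, the quinone reductase most used as a readout of NRF2, rose by 0.80 ± 0.20 at 3 mg/kg (edgeR adjusted p = 0.047) and by 2.16 ± 0.20 at 6 mg/kg (edgeR adjusted p = 1.7e-07). Without replicate 4 of 3 mg/kg its change at that dose was 0.74, with an adjusted p of 0.11. Gsta1 went from 24.2, 21.5, 28.5 and 20.0 CPM in controls to 1612, 1808, 1618 and 1384 CPM at 6 mg/kg. At 3 mg/kg it was at 175, 325, 464 and, in replicate 4, 13.7 CPM, under every control. Gsta1, Gsta2 and Gm3776 are near-identical, and their counts may not be separable.

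No cell division gene was called up to 0.3 mg/kg, and many rose at 3 mg/kg. Of 45 listed genes of mitosis and the spindle 35 were tested. Of these, 18 rose at 3 mg/kg and 33 at 6 mg/kg, and none fell at either. Their medians were -0.45, -0.07, 2.03 and 3.40 from the lowest to the highest dose. Summed, they ran from 35.9 to 50.7 CPM in controls and 292 to 444 CPM at 6 mg/kg. Members near the floor in controls could pass the count filter through the higher dose groups alone. The absence of falls and the size of the medians may therefore follow in part from that filter. Of 34 DNA replication genes, 7 rose at 3 mg/kg and 17 at 6 mg/kg, and none fell, with medians of -0.01, -0.04, 0.46 and 0.80. Without replicate 4 of 3 mg/kg 17 mitosis and 6 replication genes rose at that dose.

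Cdc20, which activates the ubiquitin ligase that ends metaphase, was at 1.12, 1.41, 1.62 and 0.78 CPM in controls, 1.49, 0.41, 1.17 and 2.24 CPM at 0.3 mg/kg, 6.23, 6.54, 11.9 and 8.68 CPM at 3 mg/kg and 16.7, 33.6, 32.8 and 31.1 CPM at 6 mg/kg. Its 3 mg/kg libraries lay wholly between those of 0.3 and 6 mg/kg. It rose by 2.73 ± 0.37 at 3 mg/kg (edgeR adjusted p = 0.00029) and by another 1.78 ± 0.30 to 6 mg/kg (edgeR adjusted p = 0.0018). Ccnb1, the mitotic cyclin B1, rose by 2.62 ± 0.61 at 3 mg/kg (edgeR adjusted p = 0.033), where replicate 4 was at 0.76 CPM and the others were at 4.01, 11.4 and 11.9 CPM. Without it the change was 3.03.

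Mcm6, a subunit of the replication helicase, reached most of its level by 3 mg/kg. It was at 3.12, 4.50, 4.96 and 5.58 CPM in controls, 4.46, 4.45, 7.04 and 8.40 CPM at 0.3 mg/kg, 16.2, 29.4, 37.7 and 32.6 CPM at 3 mg/kg and 34, 49.1, 43.8 and 46.7 CPM at 6 mg/kg. Its rise of 2.67 ± 0.26 at 3 mg/kg (edgeR adjusted p = 6.3e-06) was 82.0% of that at 6 mg/kg, and the step between those doses was not called (0.58 ± 0.24, edgeR adjusted p = 0.14). Mki67, the proliferation marker, stayed under 5 CPM in every library. It rose by 3.08 at 6 mg/kg, and its 1.36 at 3 mg/kg was not called.

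The sequence just before the start of these genes is shown because the mitosis genes moved together at 3 mg/kg. Cell cycle promoters are known for the CCAAT box, bound by NF-Y, and for the cell cycle homology region, whose core letters are TTTGAA. In the 250 bases before the RefSeq start (GRCm38.p6), searched on both strands, CCAAT occurred in 19 of the 28 tested mitosis genes with a promoter in the table (67.9%) and in 34.5% of 27025 promoters of that length. TTTGAA occurred in 7 of the 28 (25%) and in 16.3% of all. In the DNA replication list the shares were 55.6% and 11.1%. The motifs did not follow the calls at 3 mg/kg gene by gene. Mki67, Cdk1 and Ect2 hold both and were not called there, and Birc5 and Ndc80 hold neither and rose. Both letters are also in Cdc20 and Ccnb2, which are printed 5′ to 3′ on the gene's strand. CCAAT and TTTGAA, or their reverse complements, are in capitals. A match is a run of letters and not a measured binding site. Cdc20 is at chr4:118437344-118437593, minus strand, and Ccnb2, cyclin B2, is at chr9:70421555-70421804, minus strand.
Cdc20: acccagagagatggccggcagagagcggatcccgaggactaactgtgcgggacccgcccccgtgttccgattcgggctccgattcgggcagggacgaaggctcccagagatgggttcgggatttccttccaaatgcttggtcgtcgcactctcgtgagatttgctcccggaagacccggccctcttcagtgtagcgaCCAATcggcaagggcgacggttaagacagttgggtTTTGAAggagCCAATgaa
Ccnb2: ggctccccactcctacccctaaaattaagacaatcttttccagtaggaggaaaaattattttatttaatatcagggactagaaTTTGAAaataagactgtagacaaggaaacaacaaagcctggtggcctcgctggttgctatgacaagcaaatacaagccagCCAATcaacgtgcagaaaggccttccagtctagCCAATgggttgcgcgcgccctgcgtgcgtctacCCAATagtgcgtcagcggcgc

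Gadd45b, a stress and growth-control gene that CAR activators induce in mouse liver, was at 3.00, 4.08, 1.40 and 1.69 CPM in controls and 1.19, 2.48, 2.43 and 1.01 CPM at 0.3 mg/kg. It was at 16.5, 26.6, 29.1 and 22.6 CPM at 3 mg/kg and 83.3, 122, 117 and 184 CPM at 6 mg/kg. Neither of the 2 higher groups overlapped any other. It rose by 3.23 ± 0.36 at 3 mg/kg (edgeR adjusted p = 3.6e-05) and by another 2.42 ± 0.31 to 6 mg/kg (edgeR adjusted p = 0.00019). Among the 24 tested p53 targets 6 rose and 2 fell at 6 mg/kg, beside 10.9% and 9.63% of all genes, and 1 fell at 3 mg/kg. Cdkn1a, the cell cycle inhibitor p21, rose by 2.78 ± 0.58 at 6 mg/kg (edgeR adjusted p = 0.0019) from levels under 1 CPM in all controls.

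Most calls in fatty acid oxidation came at 6 mg/kg, where 10.9% of all genes rose and 9.63% fell. By edgeR, of 27 tested peroxisomal genes 1 rose at 3 mg/kg and 10 rose and 1 fell at 6 mg/kg. Of 31 mitochondrial genes none rose and 1 fell at 3 mg/kg, and 15 rose and 1 fell at 6 mg/kg. Of 14 ω-oxidation genes none was called at 3 mg/kg, and 6 rose and 2 fell at 6 mg/kg. The medians at 3 mg/kg were 0.10, 0.04 and -0.10, and at 6 mg/kg 0.38, 0.53 and 0.56. With DESeq2 the peroxisomal and ω-oxidation lists began at 3 mg/kg, and without replicate 4 of both upper doses 2 ω-oxidation genes rose at 3 mg/kg by edgeR, so the dose at which these lists begin depends on the tool and the libraries.

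Ehhadh, a bifunctional enzyme of peroxisomal oxidation and a classic PPARα target, was the member called at 3 mg/kg. It was at 340, 307, 250 and 230 CPM in controls, 314, 317, 288 and 258 CPM at 0.3 mg/kg, 320, 454, 586 and 564 CPM at 3 mg/kg and 1066, 1535, 1565 and 1499 CPM at 6 mg/kg. The 3 mg/kg libraries overlapped the controls and the 6 mg/kg ones lay wholly above all others. Its change was 0.77 ± 0.19 at 3 mg/kg (edgeR adjusted p = 0.037, and 0.068 without replicate 4) and 2.33 ± 0.19 at 6 mg/kg (edgeR adjusted p = 6e-08).

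Cyp4a14, a fatty acid ω-hydroxylase that PPARα and CAR ligands both induce, was at 3.00, 2.67, 0.54 and 0.13 CPM in controls and 0.50, 0.31, 0.50 and 0.11 CPM at 0.3 mg/kg. It was at 3.6, 4.96, 7.16 and 4.29 CPM at 3 mg/kg and at 76.6, 109, 112 and 159 CPM at 6 mg/kg. The 3 and 6 mg/kg groups each lay wholly above all lower groups. The change at 3 mg/kg was not called (1.66 ± 0.50, edgeR adjusted p = 0.13), and it rose by 4.53 ± 0.44 from 3 to 6 mg/kg (edgeR adjusted p = 2.2e-05). The main probe of Ppara itself fell by 0.81 ± 0.17 at 6 mg/kg (edgeR adjusted p = 0.0023). Its other probes changed by -0.41 and -0.62 there and were not called (edgeR adjusted p = 0.17 and 0.18). Over the dose rank each of these had a falling slope that was called.

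By edgeR most calls in cholesterol synthesis came at 6 mg/kg, where 20 of 29 tested members rose and none fell. Of all genes 10.9% rose and 9.63% fell there. At 3 mg/kg 1 member rose by edgeR, while with DESeq2 the list began at that dose. The medians were 0.20, 0.37, 0.23 and 1.06, so the list stood as high at 0.3 as at 3 mg/kg, with no member called at 0.3 mg/kg. Plate row A held 3 of the 0.3 mg/kg libraries, and row B held all of 3 mg/kg. The median row B minus row A estimate of this list, from the 1 row B library of 0.3 mg/kg, was -0.37. Its part in these medians was not tested. Sqle, squalene epoxidase, was at 20.8, 14.2, 27.3 and 18.7 CPM in controls, 38.3, 66.5, 29.9 and 31.0 CPM at 0.3 mg/kg, 34.2, 36.7, 37.8 and 69.1 CPM at 3 mg/kg and 81.9, 106, 121 and 96.4 CPM at 6 mg/kg. All groups from 0.3 mg/kg up lay wholly above the controls. Its unadjusted p for a slope up to 0.3 mg/kg was 0.0027 by edgeR, with an adjusted p of 0.43. Fdft1, squalene synthase, was the member that rose at 3 mg/kg, by 0.74 ± 0.14 (edgeR adjusted p = 0.0052), and it rose by 1.3 ± 0.14 at 6 mg/kg (edgeR adjusted p = 1.4e-06).

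The promoters of this list are shown for the same reason, since 20 members moved together. Of its 29 tested members 20 had a promoter in the table, and CCAAT occurred in 17 of them (85.0%, beside 34.5% of all). TCACNCCAC, letters of the sterol regulatory element on either strand, occurred in 1 of the 20 (5.0%), Hmgcs1, and in 1.04% of all. Hmgcs1, HMG-CoA synthase of the same pathway, rose by 1.32 ± 0.27 at 6 mg/kg (edgeR adjusted p = 0.0015). Its promoter is at chr13:119690101-119690350, plus strand, printed with these letters and CCAAT in capitals.
Hmgcs1: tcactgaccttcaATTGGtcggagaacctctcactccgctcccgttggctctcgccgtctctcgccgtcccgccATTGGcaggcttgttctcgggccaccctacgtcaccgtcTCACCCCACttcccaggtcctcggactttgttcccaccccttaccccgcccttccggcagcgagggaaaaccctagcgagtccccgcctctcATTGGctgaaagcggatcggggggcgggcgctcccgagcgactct

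By edgeR most calls in fatty acid synthesis also came at 6 mg/kg, where 13 of 27 members rose and none fell. At 3 mg/kg 1 (Elovl6) rose by edgeR, while with DESeq2 this list too began there. Fasn, fatty acid synthase, was at 3.37, 3.94, 5.71 and 8.05 CPM in controls and 26.9, 42.8, 54.2 and 56.9 CPM at 6 mg/kg, and it rose by 3.10 ± 0.42 there (edgeR adjusted p = 4.7e-05). At 3 mg/kg its libraries were at 7.61, 9.24, 10.4 and, in replicate 4, 35.1 CPM. The change at 3 mg/kg was 1.58 ± 0.42 with that library (edgeR adjusted p = 0.068) and 0.78 without it. Proteasome genes rose in 14 of 32 tested members at 6 mg/kg, with none called at 3 mg/kg and none falling. At 6 mg/kg 2 of 60 cytosolic ribosomal protein genes rose and 1 fell, with a median of 0.08. Of 51 oxidative phosphorylation genes 3 rose and 4 fell, with a median of -0.00. Of all genes 10.9% rose and 9.63% fell there, and the falling oxidative phosphorylation genes lie near that share.

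Cyp7a1, which makes the slowest step from cholesterol to bile acids, is an example of a call at 3 mg/kg that rests on 1 library. It was at 9.24, 7.60, 4.53 and 10.6 CPM in controls, 29.7, 26.9, 31.5 and 14.3 CPM at 0.03 mg/kg, 16.4, 17.3, 20.7 and 23.4 CPM at 0.3 mg/kg, 20.7, 15.9, 13.8 and 348 CPM at 3 mg/kg, and 116, 47.4, 28.9 and 64.0 CPM at 6 mg/kg. All dosed groups lay wholly above the controls. The change at 3 mg/kg was 3.65 ± 0.86 (edgeR adjusted p = 0.037) and, without replicate 4, 1.08 (edgeR adjusted p = 0.31). It rose by 3.01 ± 0.84 at 6 mg/kg (edgeR adjusted p = 0.017). The bile acid list as a whole had 9 members higher and 7 lower at 6 mg/kg of 33, beside 10.9% and 9.63% of all genes.

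Many complement and coagulation genes fell at 6 mg/kg, while other lists of secreted liver proteins had members called in both directions. Of 29 complement genes 14 fell and none rose there, of 30 coagulation genes 8 fell and 1 rose, and at 3 mg/kg 1 gene of both lists together was called (C1ra). At 6 mg/kg 6 of 25 acute-phase genes rose and 6 fell, 2 of 22 apolipoprotein genes rose and 2 fell, and 2 of 21 plasma carrier genes rose and 5 fell. Of all genes 10.9% rose and 9.63% fell there, and the apolipoprotein counts and the rising plasma carriers lie near those shares. C9, the last component of the complement pore, was at 1199, 1682, 1451 and 1580 CPM in controls, 1079, 933, 1263 and 1612 CPM at 0.3 mg/kg, 1525, 1401, 981 and 815 CPM at 3 mg/kg and 526, 358, 349 and 282 CPM at 6 mg/kg. The 6 mg/kg libraries lay wholly below all others, and the lower groups overlapped. C9 fell by 1.64 ± 0.22 from 3 to 6 mg/kg (edgeR adjusted p = 0.0002), and its change at 3 mg/kg was -0.32 ± 0.21 (edgeR adjusted p = 0.56). The most abundant of its other probes averaged 1367 CPM in controls, 477 CPM at 3 mg/kg and 127 CPM at 6 mg/kg. Its change at 3 mg/kg was -1.52 and not called (edgeR adjusted p = 0.34). Less abundant probes of C9 changed by 0.01 and -0.18 at 3 mg/kg, and all of these probes fell at 6 mg/kg. Alb fell by 0.82 ± 0.24 at 6 mg/kg (edgeR adjusted p = 0.021). The 14 tested hepatocyte markers, of which 5 fell and 1 rose at 6 mg/kg, summed to 36974 to 41894 CPM in controls and 22266 to 30281 CPM at 6 mg/kg, and their part in these falls was not tested. In whole liver, fewer cells of a type and less RNA per cell cannot be told apart.

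C1ra, a protease of the complement C1 complex, and Gjb1, the main gap junction protein of hepatocytes, were among the genes that had already fallen at 3 mg/kg. C1ra was at 30.2, 23.9, 21.8 and 37.1 CPM in controls, 3.87, 4.85, 5.28 and 0.57 CPM at 3 mg/kg and 2.64, 2.19, 2.13 and 2.10 CPM at 6 mg/kg. At 0.3 mg/kg it was at 25.1, 42.8, 34.8 and, in the row B library, 13.2 CPM. The fall at 3 mg/kg was -3.0 ± 0.43 (edgeR adjusted p = 0.00066), 82.5% of that at 6 mg/kg. Gjb1 was at 39.2, 34.3, 41.5 and 54.9 CPM in controls and 34.1, 46.4, 43.1 and, in row B, 23.2 CPM at 0.3 mg/kg. It was at 13.6, 13.3, 12.8 and 0.38 CPM at 3 mg/kg and 6.72, 6.94, 5.09 and 2.5 CPM at 6 mg/kg. For both genes the row B library at 0.3 mg/kg was the lowest of its group. With plate row as a term in the edgeR fit, the row estimate was -1.37 ± 0.60 for C1ra and the change at 3 mg/kg was -1.63 ± 0.66 (edgeR adjusted p = 0.92). For Gjb1 they were -0.83 ± 0.84 and -1.28 ± 0.92 (edgeR adjusted p = 0.92), so that neither gene was called at 3 mg/kg in that fit.

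Male-biased genes and targets of growth hormone and STAT5 fell at 6 mg/kg. The male-biased list had 14 members lower and 5 higher of 31, and 8 of 17 growth hormone targets fell and none rose, with no member of either list called at 3 mg/kg. Of 23 female-biased genes 2 rose at 3 mg/kg, and 12 rose and 1 fell at 6 mg/kg. Several of the female-biased genes that rose are also in the drug metabolism list (Cyp2b9, Cyp2a4, Sult1e1). Hsd3b5, a steroid dehydrogenase made in male mouse liver, was at 33.9, 32.5, 45.3 and 39.6 CPM in controls, 36.9, 40.1, 44.6 and 44.5 CPM at 0.3 mg/kg, 38.0, 29.8, 23 and 7.92 CPM at 3 mg/kg and 8.41, 4.14, 3.79 and 0.90 CPM at 6 mg/kg. The lowest library at 3 mg/kg, replicate 4, lay within the 6 mg/kg range. Hsd3b5 fell by 2.53 ± 0.44 from 3 to 6 mg/kg (edgeR adjusted p = 0.0033).

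Socs2, a feedback inhibitor that growth hormone induces, was at 47.8, 26.5, 30.8 and 21.9 CPM in controls, 38.3, 35.2, 28.6 and 13.1 CPM at 3 mg/kg and 10.6, 4.02, 4.14 and 3.10 CPM at 6 mg/kg. It fell by 2.40 ± 0.49 from 3 to 6 mg/kg (edgeR adjusted p = 0.008), and the change at 3 mg/kg was -0.15 ± 0.44. Igf1, the main hormone output of growth hormone in liver, fell by 0.84 ± 0.13 at 6 mg/kg (edgeR adjusted p = 0.00011).

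Pericentral Wnt targets, genes of the hepatocytes around the central vein, began at 3 mg/kg with 3 falling of 22 and had 8 falling and 3 rising at 6 mg/kg. Glul, glutamine synthetase, was at 88.6, 72.3, 108 and 112 CPM in controls, 88.6, 109, 101 and 102 CPM at 0.3 mg/kg, 71.0, 64.3, 53.5 and 25.3 CPM at 3 mg/kg and 41.8, 27.0, 23.1 and 26.8 CPM at 6 mg/kg. Its 3 mg/kg libraries lay wholly below the controls. The fall against control was not called at 3 mg/kg (-0.83 ± 0.24, edgeR adjusted p = 0.10) and was at 6 mg/kg (-1.68 ± 0.25, edgeR adjusted p = 6.9e-05). Slc1a2, a glutamate transporter, fell by 0.87 ± 0.22 at 3 mg/kg (edgeR adjusted p = 0.049, and 0.11 without replicate 4). Oat, ornithine aminotransferase, was at 194, 165, 203 and 187 CPM in controls, 145, 113, 151 and 138 CPM at 0.3 mg/kg, 120, 116, 100 and 98.2 CPM at 3 mg/kg and 105, 110, 113 and 101 CPM at 6 mg/kg. From 0.3 mg/kg up all libraries lay below all controls. Its fall was -0.79 ± 0.13 at 3 mg/kg (edgeR adjusted p = 0.0023), 97.7% of that at 6 mg/kg.

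Interferon response genes were lower at 6 mg/kg, where 18 of 38 fell and none rose, with none called at 3 mg/kg, and 9 of 20 antigen presentation genes fell and 1 rose. The interferon medians were -0.14, -0.32, -0.24 and -0.70. Irf1, an interferon-induced transcription factor, was at 62.7, 73.3, 64.5 and 53.7 CPM in controls, 48.4, 59.1, 54.1 and 40.0 CPM at 0.3 mg/kg, 45.9, 49.9, 51.1 and 40.9 CPM at 3 mg/kg and 37.8, 34.4, 33.4 and 30.1 CPM at 6 mg/kg. It fell by 0.91 ± 0.14 at 6 mg/kg (edgeR adjusted p = 0.00012). Beside this list, 3 of 8 tested lymphocyte markers and 3 of 15 macrophage markers fell at 6 mg/kg and none rose. Of all genes 9.63% fell there. Each of these marker lists held 20 genes, and the others had too few counts to be tested. The summed lymphocyte markers ran from 19.3 to 47.1 CPM in controls and 11.7 to 23.5 CPM at 6 mg/kg, and the summed macrophage markers from 312 to 413 CPM in controls and 236 to 422 CPM at 6 mg/kg. Their part in the fall was not tested.

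S100a8, a calcium-binding protein abundant in neutrophils, was at 3.12, 0.99, 0.86 and 1.17 CPM in controls and 1.29, 0.83, 0.92 and 2.35 CPM at 0.3 mg/kg. It was at 17.2, 36.6, 36.1 and 16.5 CPM at 3 mg/kg and 47.5, 57.6, 49.3 and 32.9 CPM at 6 mg/kg. It rose by 4.10 ± 0.44 at 3 mg/kg (edgeR adjusted p = 3.6e-05). Of the 14 neutrophil markers 4 had enough counts to be tested, and the other that rose was Lcn2, at 6 mg/kg, which hepatocytes also make. Of 21 stellate cell and matrix markers 4 rose and 8 fell at 6 mg/kg, and of 20 endothelial markers 2 rose and 1 fell, beside 10.9% of all genes rising and 9.63% falling.

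Over 0, 0.03 and 0.3 mg/kg edgeR called no slope (0% of genes), with 1175 probes at an unadjusted p under 0.05, and DESeq2 called 28 probes. The slope over the doses up to 3 mg/kg was called for 96 rising genes (0.95%) and 33 falling ones (0.327%). The 5 genes of each direction with the smallest unadjusted p up to 0.3 mg/kg were named whether called or not. Their distance from control at 0.3 mg/kg therefore follows in part from that choice. Rising were Cyp2c66, Aacs, Rcan1, Cyp2b10 and Por. Aacs, which activates acetoacetate for lipid synthesis, was at 28.8, 29.0, 45.2 and 28.6 CPM in controls, 65.1, 73.0, 79.8 and 59.6 CPM at 0.3 mg/kg, 49.1, 36.5, 32.4 and 42 CPM at 3 mg/kg and 64.8, 72.6, 84.0 and 34 CPM at 6 mg/kg. The 0.3 mg/kg libraries lay wholly above both the controls and the 3 mg/kg ones (slope up to 0.3 mg/kg 0.54 ± 0.12, edgeR adjusted p = 0.38).

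Falling were Sult2a1, Gbp2b, Fabp2, Gm10720 and Smim11. Sult2a1, a sulfotransferase of bile acids and steroids, was at 74.0, 33.4, 10.4 and 6.88 CPM in controls, 3.00, 13.5, 22.4 and 8.69 CPM at 0.03 mg/kg, 3.97, 2.79, 3.6 and 3.36 CPM at 0.3 mg/kg, 25.6, 45.3, 30.2 and 21.6 CPM at 3 mg/kg and 26.8, 14.9, 14.0 and 6.10 CPM at 6 mg/kg. The 0.3 mg/kg group was the one group that lay wholly outside the control range, and the controls themselves spanned more than 10-fold. Gbp2b, an interferon-induced GTPase, was at 30.6, 31.8, 16.6 and 20.4 CPM in controls and at 9.62, 12.4, 13.4 and 14.7 CPM at 0.3 mg/kg, and its fall of -1.3 ± 0.22 at 6 mg/kg was called (edgeR adjusted p = 0.00035).

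**Figure D4:**
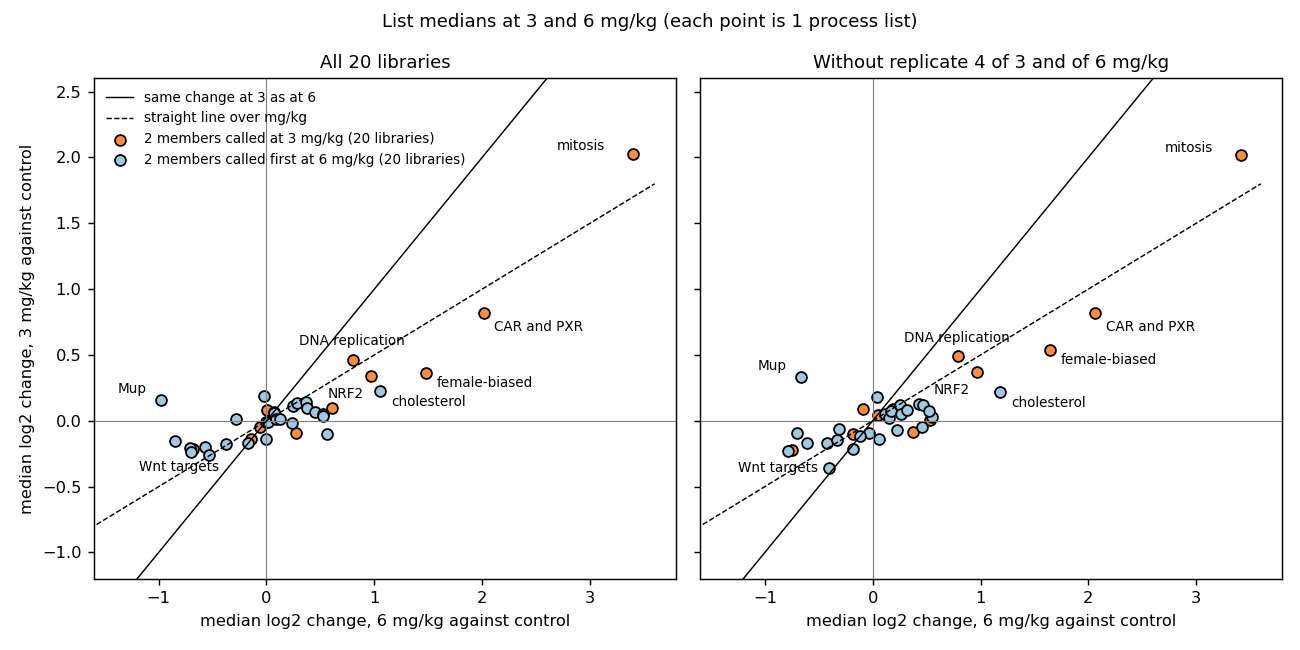
Each point is the median log2 change of 1 of 38 process lists at 3 mg/kg (vertical) against that at 6 mg/kg (horizontal), with all 20 libraries on the left and without replicate 4 of both doses on the right. Orange lists had 2 members called at 3 mg/kg. Mitosis, at 2.03 against 3.40, lies above the dashed line of a straight response over mg/kg, and cholesterol synthesis, at 0.23 against 1.06, lies below it.

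Among genes called as departing from a line over the rank whose farthest group mean was not that of 6 mg/kg, 4 passed the level needed to be named. Scly, selenocysteine lyase, was at 58.4, 45.3, 48.5 and 65.6 CPM in controls, 73.8, 67.7, 62.8 and 82.4 CPM at 0.03 mg/kg, 82.6, 79.8 and 67.5 CPM in the row A libraries of 0.3 mg/kg and 39.1 CPM in its row B library. It was at 21.3, 19.2, 25.4 and 5.44 CPM at 3 mg/kg and 25.5, 31.2, 26.3 and 34.1 CPM at 6 mg/kg. All row B libraries lay below all row A libraries. Srsf9, a splicing factor, was likewise at 127, 147 and 131 CPM in row A and 88.5 CPM in row B at 0.3 mg/kg, and at 49.7 to 57.2 CPM, with replicate 4 at 23.4 CPM, at 3 mg/kg.

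Apob, the core protein of very low density lipoprotein, was at 667, 814 and 671 CPM in row A and 428 CPM in row B at 0.3 mg/kg, beside 345, 388, 572 and 444 CPM in controls and 358, 322, 314 and 339 CPM at 3 mg/kg. Ak3, a mitochondrial adenylate kinase, was at 117, 125 and 109 CPM in row A and 96.3 CPM in row B. In all 4 genes the row B library of 0.3 mg/kg was the lowest of its dose. Over all 129 departing genes it was the lowest in 32.6% and the highest in 29.5%, beside 30.4% and 35% of all genes. The other probes of Scly, Srsf9 and Apob were not called at 3 mg/kg. Their means in controls and at 3 mg/kg were 30.1 and 27.9 CPM for Scly, 3.83 and 3.89 CPM for Srsf9, and 94.6 and 171 CPM for Apob. Whether the row B library of 0.3 mg/kg was also lowest with these probes was not tested.

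**Figure D5:**
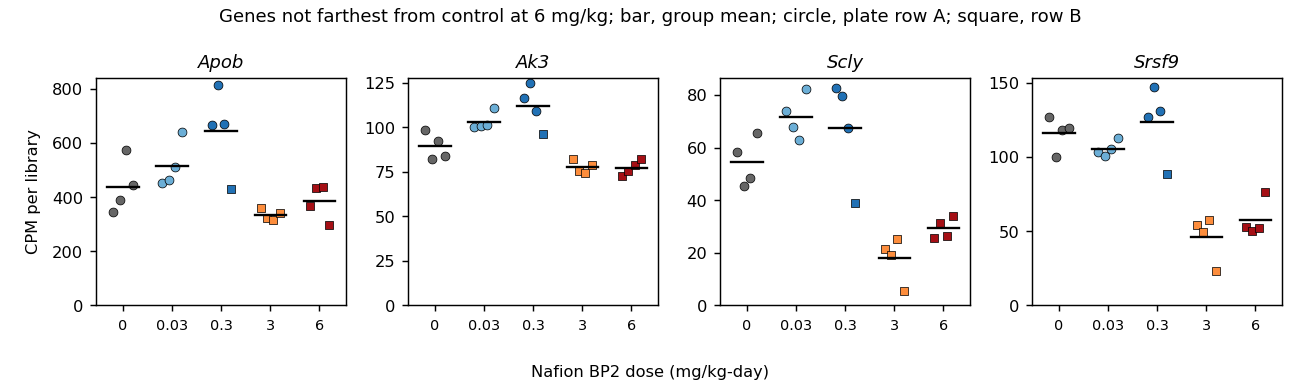
CPM (linear scale from 0) against dose in mg/kg-day in each library for the 4 named genes that depart from a line and are not farthest from control at 6 mg/kg, with circles for plate row A, squares for row B and bars for group means. The square at 0.3 mg/kg is the lowest point of its dose for each gene, at 39.1 CPM for Scly and 428 CPM for Apob.

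Plate row was therefore put into the fit beside the dose groups, where it is estimated from the 1 row B library of 0.3 mg/kg against the 3 of row A. Row itself was called for no probe by edgeR, with 681 at an unadjusted p under 0.05 and a median SE of 0.41. Among genes with a rising slope the row B library was the highest of the 4 in 30.0% and the lowest in 31.2%, beside 35% and 30.4% of all genes. With the row term the slope was called for 64 probes, 3 against 0 mg/kg for 1 and 6 against 0 mg/kg for 508. The SE of a difference from control was larger in that fit, and estimates moved in either direction. Gadd45b was at 4.24 ± 0.81 at 3 mg/kg (edgeR adjusted p = 0.18) and 6.66 ± 0.84 at 6 mg/kg (edgeR adjusted p = 0.0006), where the fit without row gave 3.23 and 5.65. Por was at 1.98 ± 0.70 at 3 mg/kg (edgeR adjusted p = 0.92), where the fit without row gave 1.98 ± 0.34. In the fit with row 161 of all 10101 genes rose at 6 mg/kg and 197 fell. There 20 of 49 drug metabolism, 15 of 36 NRF2, 12 of 35 mitosis and 9 of 29 cholesterol genes rose. Of 29 complement genes 5 fell, and of 38 interferon genes 6. Several other lists kept few of their calls. Rising proteasome genes went from 14 to 1, replication from 17 to 2, mitochondrial oxidation from 15 to 4 and female-biased from 12 to 2. Falling growth hormone targets went from 8 to 2 and male-biased genes from 14 to 2. From 3 to 6 mg/kg, within row B, 3.76% of all genes rose and 3.19% fell in the fit without the row term. There 23 of 35 mitosis, 18 of 36 NRF2, 13 of 29 cholesterol, 10 of 31 mitochondrial and 8 of 27 peroxisomal oxidation genes rose. Of 29 complement, 38 interferon and 31 male-biased genes, 8 of each fell.

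Other probes of the same genes gave a second reading of the trend. Of 486 other probes of rising genes 89.9% had a rising slope and 56.0% were called, and of 436 other probes of falling genes 73.9% had a falling slope and 22.7% were called. Rps27l, a p53 target, is an example of a gene whose probes differed: its main probe fell by 2.85 at 6 mg/kg and its other probe changed by 0.06.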

How the data were processed

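TempO-Seq probe counts were deposited by the authors as 1 table of 30146 probes by 20 libraries, as raw counts with no scaling. Reads were aligned with Bowtie (version not given in the sources used here) and the build GRCm38.p5 is named, per the submitters' processing notes. Here probes were kept by edgeR's filterByExpr by group (14122 probes, 10101 genes), scaled by TMM and fitted with edgeR 4.0.16 (R 4.3.3) by the robust quasi-likelihood method with 1 mean per group. Slopes over the dose rank, departures from a line, differences between groups and curvature over 0, 3 and 6 mg/kg are contrasts of that fit. Calls were made at 0.05 after Benjamini-Hochberg adjustment across every probe tested. The method was tested on simulated data. Depth of 6823518 to 10310931 counts limits precision for genes near 1 CPM. Sample titles give strain, sex, tissue, dose and plate well but no animal number, and each library was taken as 1 animal.

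The members, gene lists and tests were chosen with earlier results of these data known. Named genes were the called genes with the largest slopes, those with the smallest p for curvature, for the slope up to 0.3 mg/kg and for departures, up to 2 per direction of each list, and a set kept whatever its values. Other examples (list members beyond these, Ccnb2, Hmgcs1, Elovl6, Lcn2, Rps27l, Nr1i2) were chosen after their values were seen. Alternatives were DESeq2 1.42.0, limma 3.58.1 (voom), other scalings and filters, left-out libraries and fewer groups, and, chosen after seeing the data, trends over mg/kg and a plate row term. Promoters are RefSeq's on GRCm38.p6 and gene coordinates are GENCODE's on GRCm38. Some genes are not reported here.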

Additional observations from a re-analysis of the deposited data

Results flagged for a closer look

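Of 180 groups of 4 libraries examined, 13 held a value set far apart from the other 3 of its group, and chance gives about 1 in 20 such groups. Of these 13, 6 were replicate 4 of 3 mg/kg. It had a score on principal component 1 of 92.6 (nearest 1.24) and a mean correlation with its group of 0.879 (nearest 0.946). It also held 348 CPM of Cyp7a1 (nearest 20.7), 69.1 CPM of Sqle (nearest 37.8), 0.381 CPM of Gjb1 (nearest 12.8) and 23.4 CPM of Srsf9 (nearest 49.7). Replicate 4 of 6 mg/kg had a mean correlation of 0.944 (nearest 0.968) and 76.1 CPM of Srsf9 (nearest 53). Replicate 1 of 6 mg/kg was lowest for Cdc20 at 16.7 CPM (nearest 31.1) and for Ehhadh at 1066 CPM (nearest 1499). Replicate 1 of 0.3 mg/kg was lowest for Gstm3 at 2037 CPM (nearest 2154), replicate 3 of the controls highest for Aacs at 45.2 CPM (nearest 29.0), and replicate 4 of 0.03 mg/kg highest for Ak3 at 111 CPM (nearest 101).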

How the results depend on the processing

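Counts here are of probes. The slope was called for 2825 probes, any difference for 2064, departure for 170, 3 mg/kg for 211, 6 mg/kg for 2867, and the steps from 0.3 to 3 and 3 to 6 mg/kg for 401 and 950. Total-count scaling gave 629 from 0.3 to 3 mg/kg. No filter gave 2 for curvature. A mean of at least 5 CPM gave 131 at 3 mg/kg, 209 from 0.3 to 3 mg/kg and 95 for the slope up to 3 mg/kg (172 otherwise). DESeq2 gave 785 for departure, 2 at 0.03, 28 at 0.3 and 387 at 3 mg/kg, 1, 814 and 1439 for the 3 steps, 325 and 28 for the slopes up to 3 and 0.3 mg/kg, and 12 for curvature. Without replicate 4 of both upper doses, any difference was called for 4013, departure for 1847, 0.03 mg/kg for 1, 3 mg/kg for 379, the upper steps for 1523 and 2478, the slope up to 3 mg/kg for 345 and curvature for 10. With plate row as a term the counts were 64 (slope), 491 (any), 66 (departure), 1 (3 mg/kg), 508 (6 mg/kg), 2 (0.3 to 3 mg/kg), 1 (slope up to 3 mg/kg) and 0 (curvature). With the 8 libraries of each comparison alone, 4 were called at 0.3, 44 at 3 mg/kg, 74 from 0.3 to 3 mg/kg and 11 from 3 to 6 mg/kg. Departure over mg/kg was called for 1, for 25 without replicate 4 of 3 mg/kg and for 388 without both. The cause of these differences was not tested.

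Lists beginning at 3 mg/kg numbered 11, or 23 with 1 member, 7 with 10% of members and 17 with DESeq2. Those beginning at 6 mg/kg numbered 27, or 15 with 1 member, and 3 began at no dose with 10%. Leaving out each library in turn gave 2271 to 3443 for the slope, 1493 to 3941 for any difference, 55 (without replicate 3 of 0.3 mg/kg) to 1144 (without replicate 4 of 3 mg/kg) for departure, 0 to 0 at 0.03 and 0 to 1 at 0.3 mg/kg. It gave 124 to 279 at 3 mg/kg, 2120 to 4461 (without replicate 4 of 3 mg/kg) at 6 mg/kg, 0 to 1 from 0.03 to 0.3 mg/kg, 108 (without replicate 2 of 0.3 mg/kg) to 731 (without replicate 4 of 6 mg/kg) from 0.3 to 3 mg/kg and 302 (without replicate 1 of 3 mg/kg) to 3105 (without replicate 4 of 3 mg/kg) from 3 to 6 mg/kg. Slopes up to 3 and 0.3 mg/kg ranged over 116 to 241 and 0 to 1, and curvature over 1 to 2. Of 163 named genes, for the slope 160 stayed on the same side of the threshold with limma voom and 160 without replicate 4 of both doses, and none changed sign. No paired analysis was possible because the replicate numbers only follow well order within each group. The labels tie no library to a shared litter, day or batch.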
